A study of Mus musculus with 40 samples.

Results

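The fatty acid elongation and desaturation genes Elovl1, Elovl2, Elovl3, Elovl5, Fads1 and Fads2 were followed in mouse liver. They were chosen by symbol, as named enzymes of one pathway, with earlier results of these data known. Of the 6 genes, 3 were analysed, Elovl1, Elovl2 and Elovl5, out of 17724 genes in the expression table. Elovl3, Fads1 and Fads2 were not analysed here, so the results concern elongation and not desaturation by the FADS enzymes.

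RNA was sequenced from 40 livers, 1 per mouse, in 8 groups of 5. d3 mice (d3/d3) lack exon 3 in both copies of Ghr, the growth hormone receptor gene, and WT mice carry no such deletion. Each genotype was studied in males (M) and females (F), on a diet restricted by 40% in calories (CR) or on freely available food (AL). Per the labels the strain was C57BL/6NJ in all groups, and the cohort was founded by fertilising C57BL/6NJ oocytes in vitro with sperm of d3 males. All mice stayed with AL-fed mothers until weaning at 30 days, the diets then ran for 30 days, and death was at about 2 months. The protocol for tissue collection gives 28 to 34 days instead. The running numbers in the sample titles separate WT from d3 mice among CR males, and AL from CR mice within each sex of d3 mice. For those comparisons, the groups cannot be told apart from the order of the numbers. Nothing in the labels names a batch.

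Dietary linoleic and alpha-linolenic acid are turned into long polyunsaturated fatty acids in the endoplasmic reticulum by alternating desaturation, by FADS2 and FADS1, and elongation by ELOVL enzymes. ELOVL5 elongates the intermediates of middle chain length, ELOVL2 carries the later steps toward docosahexaenoic acid, and ELOVL1 elongates saturated and monounsaturated very long chains that enter sphingolipids. The ELOVL protein catalyses only the condensation, and a reductase, a dehydratase and a second reductase complete each cycle. In mouse liver some genes of the family, but not all, are known as targets of the lipogenic factor SREBP-1c and of the fatty acid sensor PPAR alpha.

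The 3 genes lie on different chromosomes of GRCm38 in the GENCODE M21 annotation. Elovl5 (ENSMUSG00000032349) spans chr9:77917364-77984519 on the plus strand, Elovl2 (ENSMUSG00000021364) spans chr13:41182381-41220405 on the minus strand and Elovl1 (ENSMUSG00000006390) spans chr4:118428093-118432953 on the plus strand. The 250 bases upstream of the RefSeq transcription start (build GRCm38.p6) are shown because Elovl5 and Elovl2 were both lower on CR, and because the 2 sequences differ in composition. Each is written 5′ to 3′ on the strand of its gene, with motif matches on either strand in capitals. The coordinates are chr9:77917115-77917364 (plus) for Elovl5, chr13:41220404-41220653 (minus) for Elovl2 and chr4:118427843-118428092 (plus) for Elovl1. For Elovl2 and Elovl1 2 starts each were listed, and only the start farthest upstream was used.
Elovl5: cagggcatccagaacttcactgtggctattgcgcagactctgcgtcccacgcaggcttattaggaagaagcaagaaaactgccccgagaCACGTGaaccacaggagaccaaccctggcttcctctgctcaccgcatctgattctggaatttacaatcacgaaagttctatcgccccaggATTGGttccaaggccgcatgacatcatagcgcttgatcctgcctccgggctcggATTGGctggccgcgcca
Elovl2: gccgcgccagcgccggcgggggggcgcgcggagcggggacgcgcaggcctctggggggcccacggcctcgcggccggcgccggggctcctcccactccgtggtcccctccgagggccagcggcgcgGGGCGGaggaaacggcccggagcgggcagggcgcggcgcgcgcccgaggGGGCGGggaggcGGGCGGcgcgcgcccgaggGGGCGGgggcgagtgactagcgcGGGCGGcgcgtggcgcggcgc
Elovl1: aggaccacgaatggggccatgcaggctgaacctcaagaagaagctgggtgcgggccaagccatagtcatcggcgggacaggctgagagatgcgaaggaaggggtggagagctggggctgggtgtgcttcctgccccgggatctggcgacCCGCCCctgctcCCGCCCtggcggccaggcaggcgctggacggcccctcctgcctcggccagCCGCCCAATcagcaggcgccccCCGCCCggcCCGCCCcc

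The motifs searched were CCAAT (the NF-Y box), GGGCGG (the GC box bound by SP1), CACGTG (an E-box), AGGTCA (a nuclear receptor site) and TTC and GAA separated by any 3 bases (the STAT site form), on both strands. The Elovl5 stretch holds CCAAT 2 times on the opposite strand, 67 to 71 and 13 to 17 bases upstream of the start, and CACGTG once, 156 to 161 bases upstream. It holds no GC box, and 55.6% of its bases are G or C. The Elovl2 stretch, 87.2% G or C, holds 5 GC boxes and none of the other 4 motifs. The Elovl1 stretch, 72% G or C, holds 5 GC boxes and 1 CCAAT, which overlaps a GC box. Of 32851 stretches of the same length in the promoter table, 33.8% hold CCAAT, 32.7% GGGCGG, 6.02% CACGTG, 14% AGGTCA and 7.02% the STAT form. A match is a run of letters and was not tested as a binding site.

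Values are the authors' normalized counts, that is, reads per gene divided by a library factor. Libraries held 21132490 to 44195300 recovered reads, with a median of 36347580. Reads behind the values ranged from 5745 to 42186 per liver for Elovl5, from 490 to 1420 for Elovl1 and from 0 to 539 for Elovl2, so counting error is widest for Elovl2. Hepatocyte markers (5 of 6 measured) summed to 1737650 to 4715560 normalized counts in every liver, as the tissue label calls for. Skeletal muscle markers (15 of 16 measured) summed to 30.1 to 2194100, and 17 livers had a mean muscle level of at least 8 on the log2 scale, 3 of 5 in d3 CR M and in d3 CR F, 1 of 5 in WT AL M and 2 of 5 in each other group. Adipocyte markers (6 of 6) summed to 164 to 18389, Kupffer cell markers (6 of 6) to 1936 to 11677 and exocrine pancreas markers (9 of 10) to 14.4 to 50526. Marker levels moved with the groups. The median Kupffer cell level (mean log2 over its markers) was lower on CR in all 4 pairs, for example 8.56 in d3 CR F and 9.42 in d3 AL F. On the same measure so was the hepatocyte level, for example 17.62 in d3 CR F and 18.18 in d3 AL F. Summed hepatocyte counts did not fall in WT males, with 2820520 to 4384840 on CR and 2252820 to 3463680 on AL. In d3 males the sums overlapped widely, with 2438000 to 3905630 on CR and 2459460 to 3165670 on AL. The median adipocyte level was higher in d3 than in WT livers in all 4 pairs, for example 7.59 in d3 CR M and 2.36 in WT CR M. The median muscle level was 11.23 in d3 CR M and 12.48 in d3 CR F, and at most 6.10 in the other groups. The part of Kupffer cell, hepatocyte, adipocyte and exocrine pancreas levels in the results was not tested. The 3 elongases correlated with the muscle level at r = -0.23 (Elovl5), -0.18 (Elovl1) and -0.17 (Elovl2) over the 40 livers, a description of livers that also share diets. In whole tissue, fewer cells of a type and less RNA per cell cannot be told apart. Ghr itself averaged 12749 ± 1610 normalized counts in d3 CR M, against 17084 ± 2384 in WT CR M (SD, n = 5 each). The means were 11676 in d3 CR F and 12080 in WT CR F, 14140 in d3 AL M and 15813 in WT AL M, and 11633 in d3 AL F and 12743 in WT AL F. No pair passed the test (adjusted p of at least 0.629, limma), and a gene-level value does not show the deleted exon.

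Per kilobase of the longest coding transcript, Elovl5 was the most abundant of the 3. Its median over 40 livers was 4015 normalized counts per kilobase (2782 bases), against 536 for Elovl1 (1811 bases) and 22.8 for Elovl2 (3840 bases). Elovl6, which elongates palmitate to stearate and is not one of the 6 genes, had a median of 355 per kilobase. Elovl4, the elongase of ultra-long chains, was nearly absent at 0.25 per kilobase.

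Elovl5, the elongase of polyunsaturated fatty acids, was lower on CR. In d3 males it had 10313, 8441, 8224, 5869 and 7221 normalized counts on CR, against 10956, 6767, 21223, 16410 and 26414 on AL. In WT males it had 7129, 8137, 11988, 13376 and 11102 on CR, against 37172, 29154, 20837, 10644 and 11240 on AL. Of the d3 AL males, 4 stood above every d3 CR male, 1 of them narrowly, and 3 WT AL males stood above every WT CR male. The remaining AL males lay within the CR range, so the groups overlapped.
In d3 females Elovl5 had 15856, 10498, 12191, 13052 and 4671 normalized counts on CR, against 9934, 8444, 13181, 24569 and 23724 on AL. In WT females it had 9110, 8337, 10935, 9400 and 12366 on CR, against 36635, 19260, 15602, 11321 and 8637 on AL. The groups overlapped in both genotypes, with 2 d3 AL females and 3 WT AL females above every CR female of their genotype.

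The diet difference of Elovl5 lay in the upper part of the AL range. Over the 20 CR livers its level ran from 4671 to 15856 with a median of 9857 normalized counts, and over the 20 AL livers from 6767 to 37172 with a median of 16006. Thus 10 of 20 AL livers exceeded the highest CR liver, while only 2 of 20 CR livers lay below the lowest AL liver. The coefficient of variation within groups was 16.1% to 37.0% on CR, against 47.9% to 60.3% on AL. The spread between AL livers was not tested against that between CR livers. In order of the group mean, the 4 AL groups (21809 in WT AL M, 18291 in WT AL F, 16354 in d3 AL M and 15970 in d3 AL F) all stood above the 4 CR groups (11253 in d3 CR F, 10346 in WT CR M, 10030 in WT CR F and 8013 in d3 CR M). Each neighbour in this order overlapped the next in range, and the gap was below the larger SD except between WT CR F and d3 CR M.

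**Figure D1:**
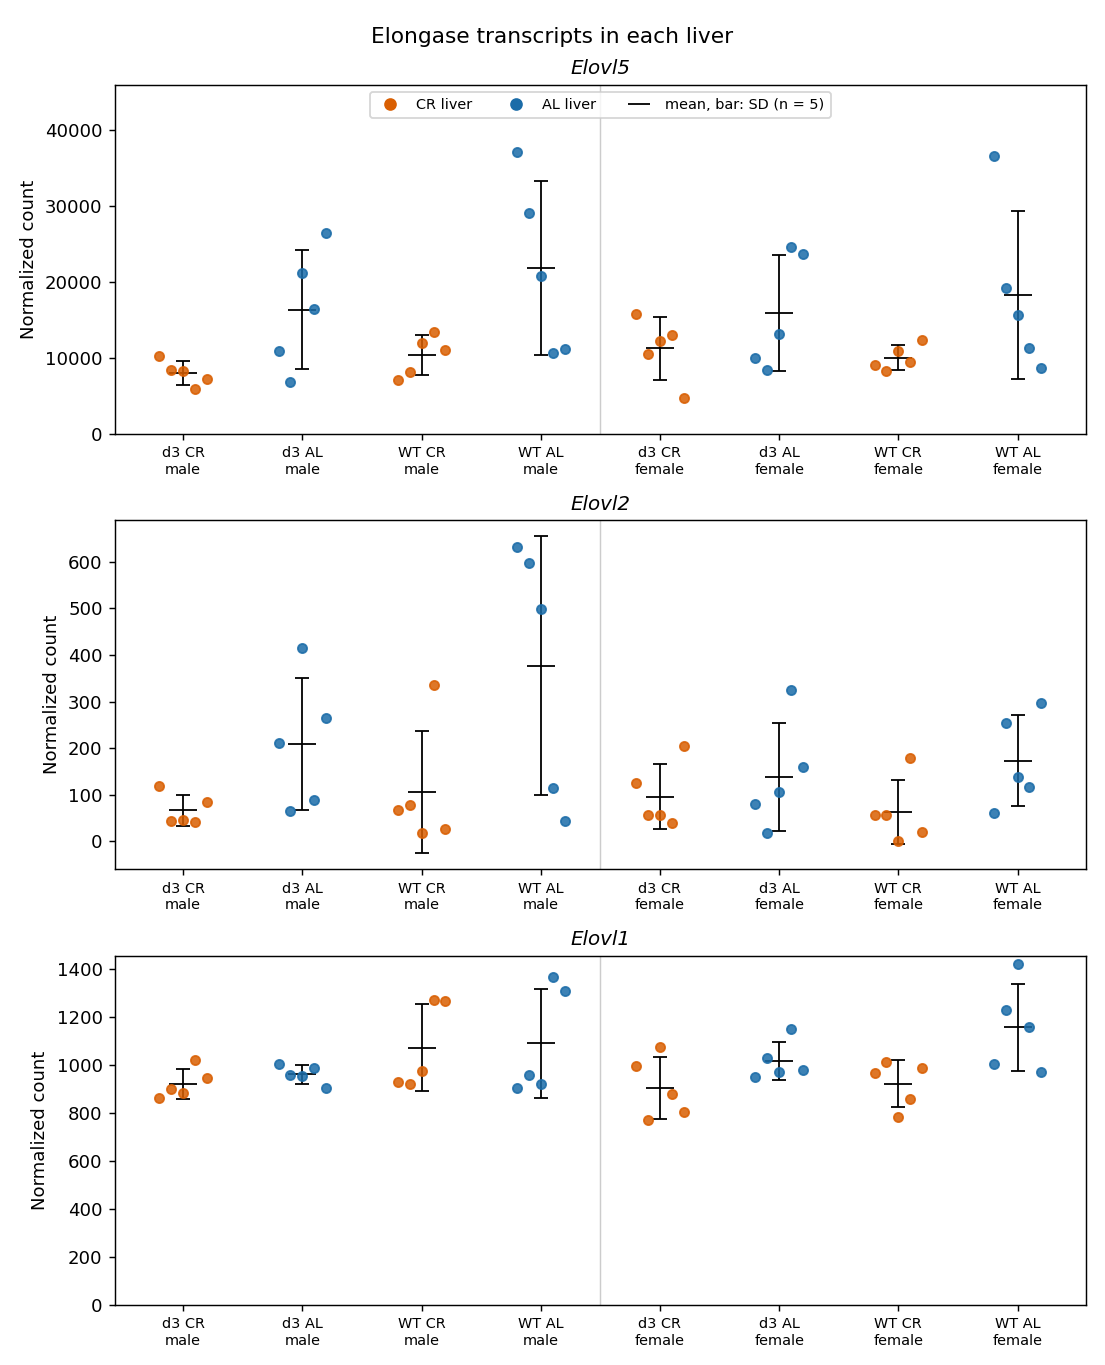
Normalized counts of Elovl5, Elovl2 and Elovl1 in each of 40 livers (points, CR orange and AL blue), with the mean and SD of each group of 5 in black, males left and females right. Elovl5 stays at or below 15856 in all 20 CR livers and reaches 37172 in AL livers, and Elovl2 is at 0 in 1 WT CR female.

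Taken pair by pair with limma, no elongase passed the threshold for diet (adjusted p below 0.05, Benjamini-Hochberg over 13776 genes). The log2 change of Elovl5, CR minus AL, was -0.90 ± 0.38 in d3 males (SE, adjusted p = 0.093) and -0.48 ± 0.38 in d3 females (adjusted p = 0.431). It was -0.94 ± 0.38 in WT males (adjusted p = 0.0736) and -0.70 ± 0.38 in WT females (adjusted p = 0.25). Of all genes tested, 19.5% were called in d3 males, 17.9% in d3 females, 21.5% in WT males and 11.7% in WT females, against 0 of the 3 elongases in each pair. Without the 17 muscle-rich livers the change of Elovl5 was -0.73 in d3 males (adjusted p = 0.492) and -0.013 in d3 females (adjusted p = 0.997). It was -1.36 in WT males (adjusted p = 0.0554) and -0.93 in WT females (adjusted p = 0.358). That fit kept 2 d3 CR and 3 d3 AL females, too few to tell a lost change from a kept one. It was not the only fit with almost no change in d3 females. Over the 8 settings other than single livers left out, their change ran from -0.51 to -0.0090, with no call. Some alternatives did call Elovl5, as given with the other settings at the end. In WT males, edgeR on the recovered reads gave -1.09 (adjusted p = 0.0377) and library weights gave -1.39 (adjusted p = 0.00317). The AL males at CR levels weighed on these values. Without WT AL M replicate 4 the change in WT males was -1.16 (adjusted p = 0.0368) and without replicate 5 it was -1.14 (adjusted p = 0.0376), and without d3 AL M replicate 2 the change in d3 males was -1.18 (adjusted p = 0.0318).

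Averaged over the 4 pairs of groups, Elovl5 fell on CR by 0.75 ± 0.19 on the log2 scale (95% interval -1.14 to -0.37, adjusted p = 0.00147, limma). This average over all 40 livers was added after the values had been seen. In the same average 45.7% of all genes were called, so a call alone sets a gene apart little, and 3 of 3 elongases were called. Elovl5 kept its call in each of 40 fits that left out 1 liver, with changes of -0.82 to -0.68 and adjusted p from 0.00043 to 0.00294. Without the 17 livers rich in muscle transcripts it was -0.76 (adjusted p = 0.0354), and with the muscle level as a covariate -0.72 (adjusted p = 0.00247).

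Elovl2, the elongase of the later polyunsaturated steps, was scarce and variable. In d3 males it had 118, 44.2, 45.8, 41.5 and 85.2 normalized counts on CR, against 212, 66.0, 415, 89.8 and 264 on AL. In WT males it had 68.0, 77.4, 18.6, 335 and 26.8 on CR, against 633, 597, 498, 114 and 44.8 on AL. All but 1 CR male of each genotype lay below the second-lowest AL male of the same genotype, and 1 WT CR male stood far above the other 4.
In d3 females Elovl2 had 124.5, 55.9, 55.7, 39.1 and 205 normalized counts on CR, against 81.1, 17.6, 107, 325 and 160 on AL. In WT females it had 57.5, 57.6, 0, 179 and 20.1 on CR, against 61.7, 254, 138, 117 and 297 on AL. The d3 female groups ran through each other, and 4 of 5 WT CR females lay below all 5 WT AL females. The liver listed at 0 had no Elovl2 read, which allows up to 3 reads at its depth.

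The log2 change of Elovl2, CR minus AL, was -1.45 ± 0.94 in d3 males (SE, adjusted p = 0.292), -0.27 ± 0.94 in d3 females (adjusted p = 0.885), -1.99 ± 0.94 in WT males (adjusted p = 0.133) and -2.51 ± 0.94 in WT females (adjusted p = 0.0775, all limma). The value in WT females leaned on the liver at 0 and on 1 high CR liver. Without WT CR F replicate 3 it was -1.33, and without replicate 4 it was -3.20 (adjusted p = 0.0289). In WT males, the change was -2.61 without WT AL M replicate 5 (adjusted p = 0.0496), -2.35 with library weights (adjusted p = 0.0232) and -2.85 without the muscle-rich livers (adjusted p = 0.0146). Without those livers the change was smaller in d3 males (-0.21, adjusted p = 0.926) and WT females (-1.28, adjusted p = 0.44), and it was -0.73 in d3 females (adjusted p = 0.689). Averaged over the 4 pairs, Elovl2 fell on CR by 1.56 ± 0.47 on the log2 scale (95% interval -2.51 to -0.60, adjusted p = 0.00693). All 40 fits without 1 liver kept that call, with changes of -1.73 to -1.26. The median over all CR livers was 56.7 normalized counts, against 149.02 over all AL livers.

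Elovl1, the elongase of saturated very long chains, was the steadiest of the 3. In d3 males it had 864, 900, 883, 1020 and 946 normalized counts on CR, against 1003, 959, 953, 989 and 903 on AL. In WT males it had 927, 919, 975, 1273 and 1266 on CR, against 903, 957, 921, 1368 and 1308 on AL. Male CR and AL livers were intermixed, and 2 livers in each WT male group stood apart above 1200.
In d3 females Elovl1 had 996, 771, 1077, 877 and 804 normalized counts on CR, against 951, 1028, 970, 1150 and 980 on AL. In WT females it had 969, 1014, 782, 859 and 989 on CR, against 1004, 1230, 1422, 1157 and 972 on AL. In each genotype 3 of 5 CR females lay below every AL female, and the rest overlapped.

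Diet changes of Elovl1 were small beside those of Elovl5 and Elovl2. The log2 change, CR minus AL, was -0.06 ± 0.12 in d3 males, -0.17 ± 0.12 in d3 females, -0.02 ± 0.12 in WT males and -0.32 ± 0.12 in WT females (SE, limma, adjusted p from 0.0748 in WT females to 0.94). Library weights gave the WT female change an adjusted p of 0.0202, and leaving out WT AL F replicate 5 gave -0.38 (adjusted p = 0.0463). Averaged over the 4 pairs, Elovl1 fell on CR by 0.14 ± 0.06 on the log2 scale (95% interval -0.26 to -0.02, adjusted p = 0.0471). That call was at the edge of the threshold, since 23 of 40 fits without 1 liver lost it, and without the muscle-rich livers the change was -0.10 (adjusted p = 0.359).

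**Figure D2:**
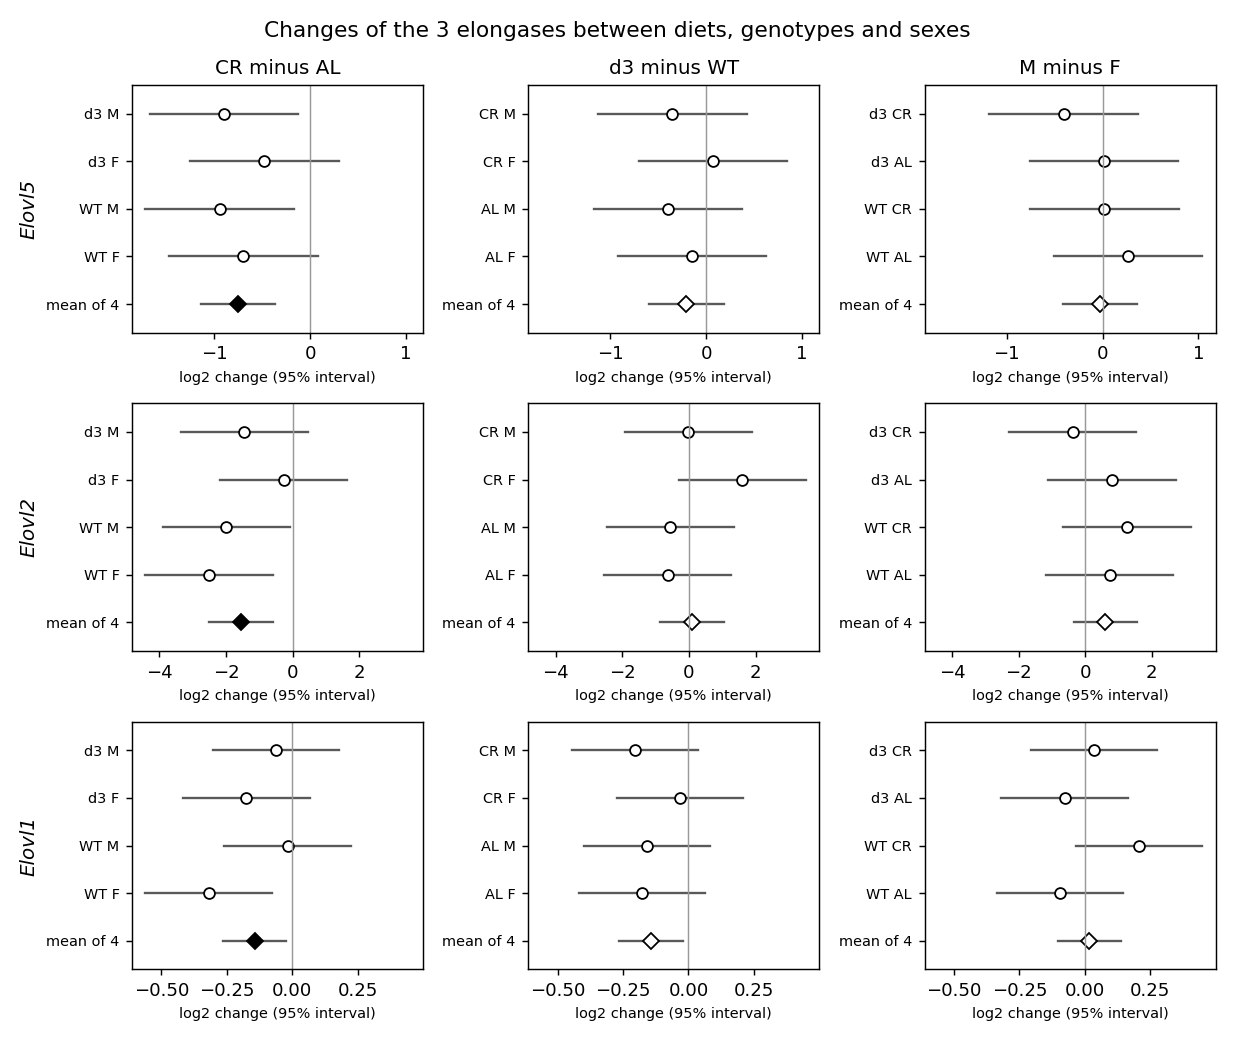
Log2 changes of Elovl5, Elovl2 and Elovl1 (rows, limma, with 95% intervals as lines) for CR minus AL, d3 minus WT and M minus F (columns), in 4 pairs of groups (circles) and averaged over the pairs (diamonds), filled where the adjusted p is below 0.05. The filled symbols are the 3 diet averages, at -0.75, -1.56 and -0.14.

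Genotype was not called for any elongase in any pair. For Elovl5 the log2 change, d3 minus WT, was -0.35 in CR males, 0.07 in CR females, -0.40 in AL males and -0.15 in AL females, each with an SE of 0.38 and adjusted p of at least 0.857. For Elovl2 it was -0.02, 1.60, -0.56 and -0.64 in the same order of groups, each with an SE of 0.94 and adjusted p of at least 0.77. The 1.60 in CR females rested on the WT liver at 0, since without WT CR F replicate 3 it was 0.42. Without the muscle-rich livers the 4 values of Elovl2 were 0.93, 0.20, -1.71 and -0.35. For Elovl1 it was -0.20, -0.03, -0.16 and -0.18, each with an SE of 0.12 and adjusted p of at least 0.679. The background was equally sparse, with 0.138% of all genes called in CR males, 0% in CR females, 0.0436% in AL males and 0% in AL females. At an unadjusted p under 0.05 the counts were 1106, 1027, 1121 and 875 genes of 13776. The intervals leave room for moderate changes, for example -1.13 to 0.42 for Elovl5 in CR males.

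In the authors' deposited table, which tests d3 over WT in the same 4 settings, Elovl5 had log2 fold changes of -0.40 in CR males, 0.15 in CR females, -0.37 in AL males and -0.18 in AL females, with adjusted p of at least 0.814. The authors' deposited table gave Elovl2 -1.23 in CR males, where the fit above gave -0.02. Both values were far from the threshold, with an adjusted p of 0.944 in the authors' deposited table. Averaged over the 4 pairs, the log2 changes d3 minus WT were -0.21 ± 0.19 for Elovl5, 0.10 ± 0.47 for Elovl2 and -0.14 ± 0.06 for Elovl1 (SE, limma). In that average 0% of all genes were called (967 at an unadjusted p under 0.05), and Elovl1 had an unadjusted p of 0.0216 and an adjusted p of 0.701.

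Sex gave no call either. For Elovl5 the log2 change, M minus F, was -0.41 in d3 CR, 0.02 in d3 AL, 0.02 in WT CR and 0.27 in WT AL livers, with adjusted p of at least 0.556. For Elovl2 it was -0.37, 0.81, 1.25 and 0.74, and for Elovl1 0.04, -0.08, 0.21 and -0.09, in the same order, with adjusted p of at least 0.496 and 0.347. Genes called for sex made up 8.81% of all genes in d3 CR, 6.16% in d3 AL, 4.57% in WT CR and 6.48% in WT AL livers. Averaged over the pairs, 23.9% of all genes were called for sex and no elongase was, with -0.03 ± 0.19 for Elovl5, 0.61 ± 0.47 for Elovl2 and 0.02 ± 0.06 for Elovl1. The 95% interval of the averaged Elovl5 change, -0.41 to 0.36, bounds a sex difference more narrowly than any single pair.

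The 6 interactions asked whether a change differed between groups, and 0 of 3 elongases passed in each. Genes called for a diet change that differed between males and females were 2.09% of all in d3 and 0.348% in WT mice. Genes called for a genotype change that differed between CR and AL were 0.0218% in males and 0% in females, and for one that differed between the sexes 0.0145% on CR and 0% on AL. At an unadjusted p under 0.05 the 2 interactions without a call held 1527 and 1056 genes. The diet change of Elovl5 in males minus that in females was -0.42 ± 0.54 in d3 mice (SE, 95% interval -1.52 to 0.67) and -0.25 ± 0.54 in WT mice (95% interval -1.34 to 0.85). With intervals this wide, the diet changes of the sexes were neither shown to differ nor shown to be alike.

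The related genes outside the 6 were taken from 4 lists of the pathway, 55 genes of which 47 had values and 45 passed the filter on low values. On CR, 10 rose and 8 fell in d3 males, 10 and 5 in d3 females, 12 and 7 in WT males, and 8 and 4 in WT females. These are 18, 15, 19 and 12 of 45 genes, where 19.5%, 17.9%, 21.5% and 11.7% of all genes were called. The median log2 change of the 45 genes was 0.05, 0.01, 0.06 and -0.01 in these groups, and that of all genes tested was 0.03, 0.02, 0.04 and 0.02. Called genes of the lists thus lay on both sides of 0.

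Among the other elongases and desaturases (3 of 10 tested), Elovl6 rose on CR in every pair, opposite in sign to Elovl5. It averaged 6107 ± 2758 normalized counts on CR and 883 ± 61.4 on AL in d3 males, and 2848 ± 776 on CR and 1554 ± 459 on AL in d3 females (SD, n = 5 each). In WT males it averaged 5257 ± 1590 on CR and 1310 ± 451 on AL, and in WT females 3374 ± 1146 on CR and 1526 ± 375 on AL. CR and AL livers did not overlap in any of the 4 pairs. The log2 changes of Elovl6 were 2.67 ± 0.27 in d3 males (adjusted p = 3.07e-09), 0.89 ± 0.27 in d3 females (adjusted p = 0.0185), 2.01 ± 0.27 in WT males (adjusted p = 9.72e-07) and 1.11 ± 0.27 in WT females (adjusted p = 0.00613, all limma). Without the muscle-rich livers the changes in d3 females (0.54, adjusted p = 0.41) and WT females (1.17, adjusted p = 0.0567) no longer passed. Degs1, the dihydroceramide desaturase, fell in d3 males alone among the pairs (-0.49 ± 0.13, adjusted p = 0.00653), and the difference from the other pairs was not tested. Degs1 was not followed in the fit without the muscle-rich livers. Fads6, a desaturase-like gene, had changes of -0.08 to 0.10 with adjusted p of at least 0.733.

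The partners that complete the elongation cycle or feed it electrons (11 of 12 tested) gave 1 call in d3 males, 2 in d3 females, 3 in WT males and 0 in WT females, all upward. The shares of all genes called, in either direction, were 19.5%, 17.9%, 21.5% and 11.7% in these pairs, and nothing particular to the list is read from its counts. Tecr, the reductase of the last step of the cycle, rose in d3 females (0.49 ± 0.12, adjusted p = 0.00382) and WT males (0.35 ± 0.12, adjusted p = 0.0339). Cyb5b, an outer mitochondrial membrane cytochrome b5, rose in d3 males (0.82 ± 0.20, adjusted p = 0.00314) and WT males (0.68 ± 0.20, adjusted p = 0.0121). Cyb5r1 rose in d3 females (0.81 ± 0.27, adjusted p = 0.0314), and Cyb5r3, the cytochrome b5 reductase that supplies the desaturases, rose in WT males (0.49 ± 0.17, adjusted p = 0.0404). Tecr, Cyb5b, Cyb5r1 and Cyb5r3 were not followed in the fit without the muscle-rich livers. Cyb5a, the cytochrome b5 of the endoplasmic reticulum, had an averaged change of 0.26 ± 0.13 (adjusted p = 0.0904).

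Of the regulators (12 of 13 tested), Srebf1, which encodes the lipogenic SREBP-1 proteins, rose on CR in each pair. It averaged 13447 ± 5369 normalized counts on CR and 2691 ± 1438 on AL in d3 males, and 7173 ± 1125 on CR and 2804 ± 1058 on AL in d3 females. In WT males it averaged 12268 ± 2718 on CR and 1547 ± 363 on AL, and in WT females 8887 ± 887 on CR and 4319 ± 1953 on AL (SD, n = 5 each). Its log2 changes were 2.49 ± 0.40, 1.46 ± 0.40, 2.99 ± 0.40 and 1.26 ± 0.40 (SE, adjusted p of at most 0.0346, limma). Without the muscle-rich livers, with 2 or 3 females left per group, those in females no longer passed. The changes were then 1.22 in d3 females (adjusted p = 0.266) and 1.67 in WT females (adjusted p = 0.117), the latter larger than with all livers. With 1 liver left out, the Srebf1 call in WT females was lost in 5 of 10 fits, with changes of 0.79 to 1.45. In d3 females it was kept in all 10 such fits. Insig1, whose protein retains SREBP in the endoplasmic reticulum, rose in every pair, by 1.62 ± 0.41 in d3 males and 1.55 ± 0.41 in d3 females, and by 1.59 ± 0.41 in WT males and 1.51 ± 0.41 in WT females. Without the muscle-rich livers Insig1 no longer passed in d3 females (1.37, adjusted p = 0.197) or WT females (1.62, adjusted p = 0.121). The male changes of Insig1 were not followed in that fit. Insig2, its paralog, moved the other way, by -3.22 ± 0.25 in d3 males, -2.39 ± 0.25 in d3 females, -3.31 ± 0.25 in WT males and -2.37 ± 0.25 in WT females (adjusted p of at most 2e-08). Ppara itself was not called for diet in any pair.

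In the list of acyl-CoA synthesis, incorporation and chain shortening (19 of 20 tested), 2 genes of fatty acid synthesis were called upward. Fasn was called in all 4 pairs, and Acaca is given here for males. Fasn, the fatty acid synthase, rose by 3.13 ± 0.42 in d3 males, 1.20 ± 0.42 in d3 females, 2.58 ± 0.42 in WT males and 1.79 ± 0.42 in WT females. The value in d3 females was at the edge (adjusted p = 0.045, limma) and did not pass in 12 of 18 other settings. Acaca, the acetyl-CoA carboxylase that makes malonyl-CoA, rose in d3 males (2.15 ± 0.26) and WT males (1.61 ± 0.26). Acsl1, the main acyl-CoA synthetase of liver, fell in d3 males (-1.60 ± 0.21) and WT males (-1.25 ± 0.21). The peroxisomal enzyme gene Hsd17b4 fell in all 4 pairs, by 0.68 to 0.74 on the log2 scale (adjusted p from 0.00557 to 0.0127). These calls are counted in the figure of diet changes by gene.

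**Figure D3:**
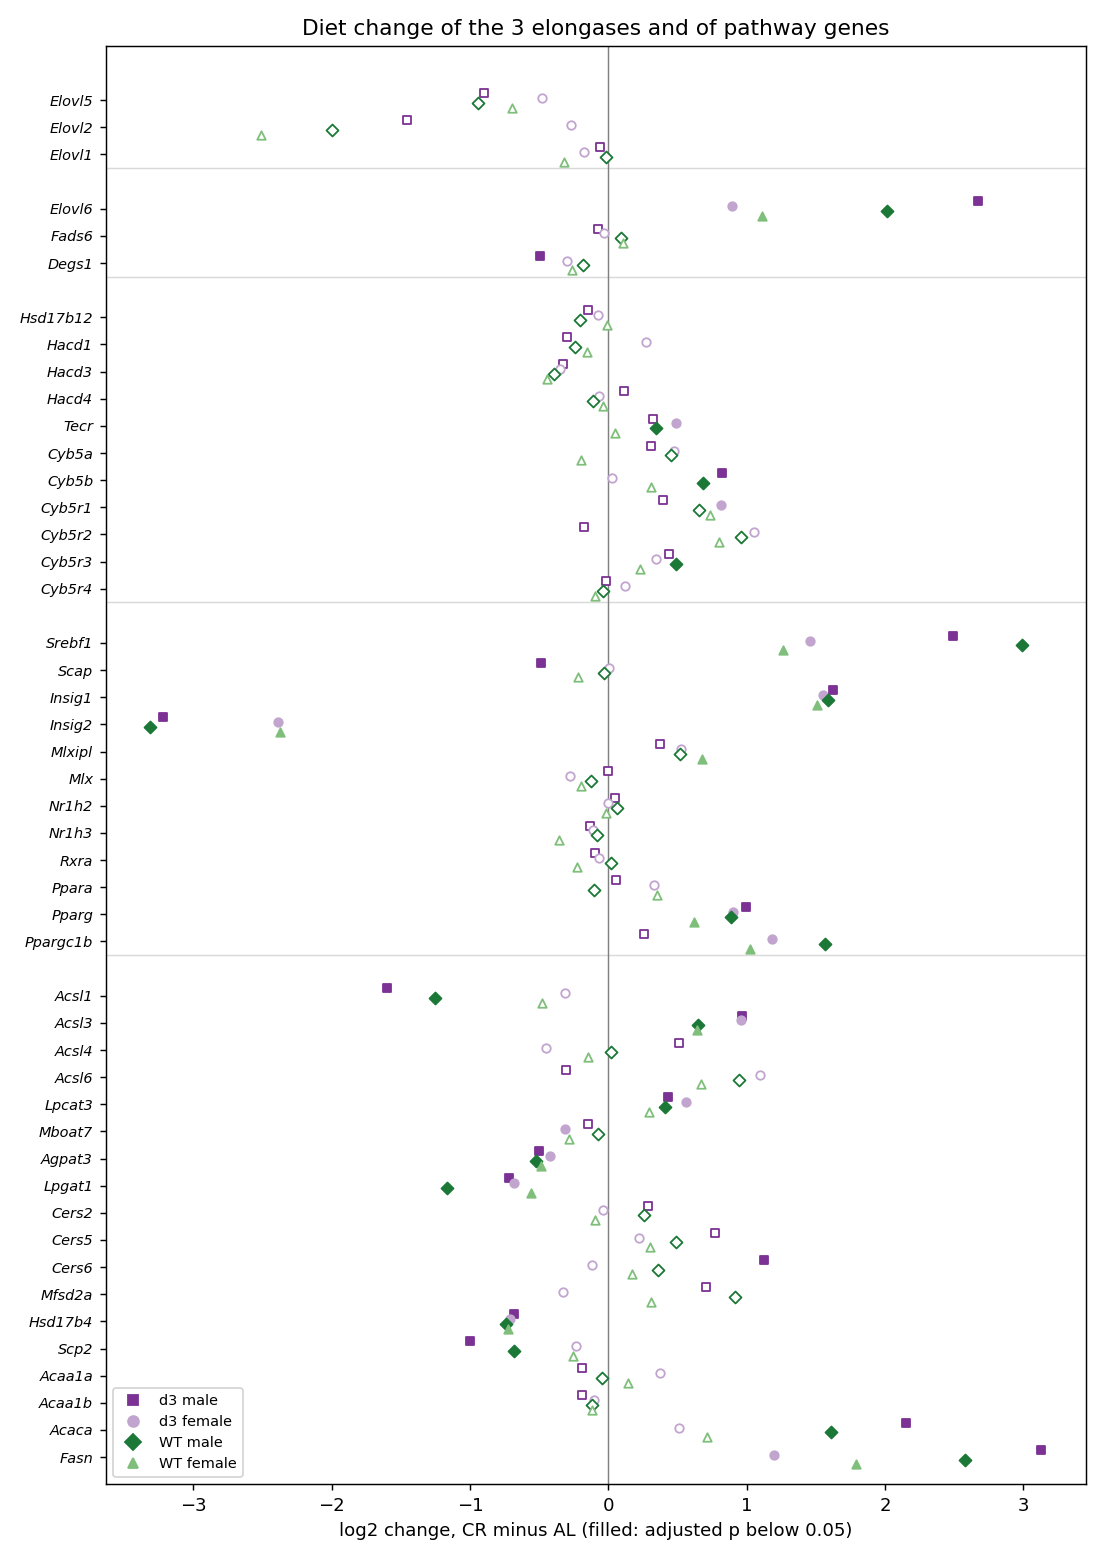
Log2 changes, CR minus AL, of the 3 elongases (top block) and of pathway genes in 4 lists, 1 symbol per pair of groups, filled where the adjusted p is below 0.05 (limma). Elovl6, Srebf1, Insig1 and Fasn lie to the right in every pair, Insig2 to the left, and Elovl5 and Elovl2 are open symbols left of 0.

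The genes whose levels followed Elovl5 most closely over the 40 livers were Acot1, a cytosolic acyl-CoA thioesterase (Pearson r = 0.89), Vnn1, the pantetheinase vanin-1 (0.88), and Hsdl2, a peroxisomal dehydrogenase-like gene (0.86). After the mean of each group was subtracted, r was 0.87 for each of these genes, so the likeness held among livers of one group. For Elovl1 the most similar were Spcs2, a signal peptidase subunit (r = 0.78), Mydgf, a secreted growth factor (0.76), and Actb, beta-actin (0.76). For Elovl2 they were Znrf2, a ubiquitin ligase (0.71), Emc3, a subunit of the membrane protein insertase (0.71), and Prxl2c (0.71). These values describe log2 levels in libraries that share diets, sexes and scaling, and the most similar of 13776 genes is high by choice.

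Within the pathway lists, the likeness of Elovl5 to other genes varied in size and sign. After group means were subtracted, r over 40 livers was 0.86 with Acaa1b, the peroxisomal thiolase, and 0.75 with Acsl1. It was -0.52 with Srebf1, -0.13 with Elovl6, 0.22 with Elovl2 and -0.10 with Elovl1. These 6 were singled out after the values had been seen, and reads of Acaa1b may be shared with its close paralog Acaa1a. Acaa1b had an averaged diet change of -0.13 ± 0.19 (SE, adjusted p = 0.585, limma).

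**Figure D4:**
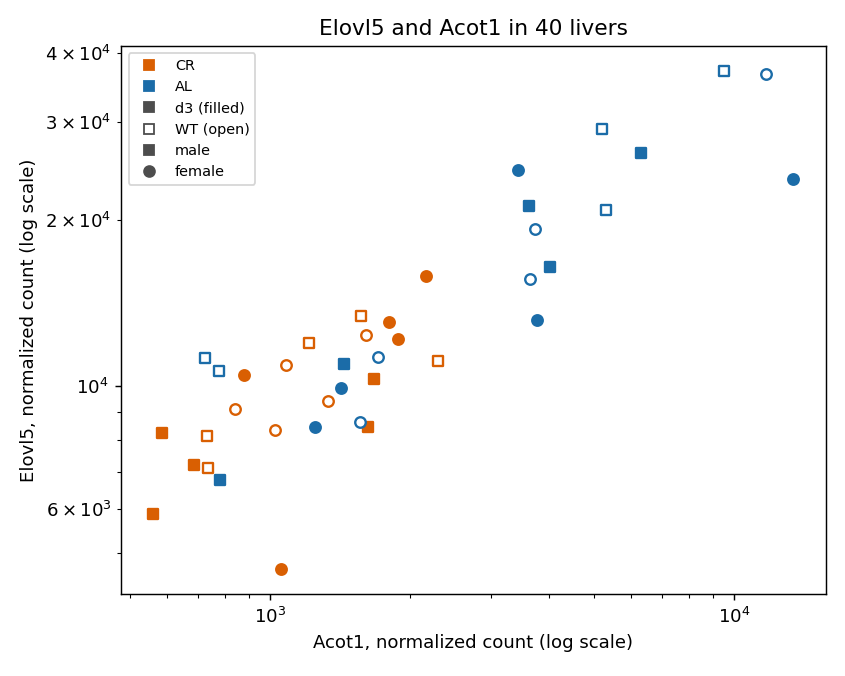
Elovl5 (vertical) against Acot1 (horizontal), normalized counts on log axes, in 40 livers, with CR orange, AL blue, d3 filled, WT open, squares male and circles female. The points run along one band (r = 0.89 on log2 levels), and the AL livers occupy both its upper end and its middle.

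In the lists 6 genes were called between the sexes in d3 CR, 5 in d3 AL, 3 in WT CR and 7 in WT AL livers, of 45 in each. Of all genes, 8.81%, 6.16%, 4.57% and 6.48% were called in these groups. Scp2, the peroxisomal thiolase and sterol carrier gene, was higher in males than females in d3 AL (1.16 ± 0.18), WT CR (0.78 ± 0.18) and WT AL livers (1.20 ± 0.18). Acsl1 was higher in males in d3 AL (1.09 ± 0.21) and WT AL livers (1.10 ± 0.21). Ppara, which encodes PPAR alpha, was higher in males by 0.74 ± 0.16 in d3 AL and 0.60 ± 0.16 in WT AL livers. Other genes were lower in males. Cers6, a ceramide synthase, had a change of -1.36 ± 0.27 in d3 AL livers (adjusted p = 0.000947, limma), and Srebf1 one of -1.28 ± 0.40 in WT AL livers (adjusted p = 0.0466). The call of Srebf1 was at the edge, since 8 of 10 fits without 1 liver and 3 of 8 other settings lost it. Insig2 had a change of -0.84 ± 0.25 in d3 CR (adjusted p = 0.0303) and -0.98 ± 0.25 in WT CR livers (adjusted p = 0.0178), and Hacd1, a dehydratase of the elongation cycle, one of -0.85 ± 0.24 in d3 CR livers (adjusted p = 0.0254). In d3 CR livers Elovl6 was higher in males (1.02 ± 0.27, adjusted p = 0.0164, limma), as were Fasn (1.32 ± 0.42, adjusted p = 0.045) and Acaca (1.15 ± 0.26, adjusted p = 0.00618). Without the muscle-rich livers, Elovl6 (0.84, adjusted p = 0.221) and Fasn (0.97, adjusted p = 0.203) no longer passed. Nor did Hacd1 in d3 CR (-0.66, adjusted p = 0.0863), Scp2 (0.59, adjusted p = 0.239) and Insig2 (-0.91, adjusted p = 0.315) in WT CR, or Srebf1 in WT AL livers (-0.9996, adjusted p = 0.289). Insig2 in d3 CR livers was not followed in that fit. For genotype, 0 of the 45 genes were called in each of the 4 pairs, and 0 to 4 had an unadjusted p under 0.05.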

How the data were processed

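Liver RNA of 40 mice was sequenced after a KAPA Hyperprep library preparation, per the labels' protocols. FastQC, MultiQC, Trimmomatic, kallisto, DESeq2 and the build GRCm38 are named in the submitters' processing notes, with versions not given in the sources used here. Deposited signal values are gene counts that the authors divided by library factors. Steps between low values gave whole reads back for 100% of values (tolerance 0.01 reads). The authors' deposited log2 fold changes and adjusted p-values are printed only where they are named as such.

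Of 17839 table rows, 115 repeats were dropped. log2(value + 1) of the 13776 genes with a mean of at least 10 was fitted with limma 3.58.1 (R 4.3.3, trend) in 1 model of 8 groups with 32 residual degrees of freedom. Adjustment was by Benjamini-Hochberg over every gene in the fit, and an adjusted p below 0.05 was called. On this scale the added 1 shrinks fold changes of low genes, but a liver at 0 can widen them. The diet change of Elovl2 in WT females was -2.51 with the liver at 0 and -1.33 without it. There were 12 pair comparisons and 6 interactions, and means over 4 pairs were added after the values were seen. Alternatives were a pseudocount of 10, no filter, another scaling, groups fitted alone, library weights, edgeR 4.0.16 on recovered reads, removal of 17 muscle-rich livers, the muscle level as covariate, and each liver left out. Removal of the muscle-rich livers left 2 to 4 livers per group, so calls lost there come with fewer livers. Replicates are separate mice. The fit was tested on simulated data.

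The genes and lists were chosen with earlier results of these data known. In each comparison, the rule named up to 5 called pathway genes with the largest change and up to 2 uncalled ones with the highest level, and for likeness the 3 genes with the highest Pearson r. Degs1, Fads6, Elovl4, Tecr, Cyb5b, Cyb5r1, Cyb5r3 and Hsd17b4, and any other pair value outside that rule, were added after values were seen. The alternative settings were not followed gene by gene for the genes just named. One gene of the lists enters the counts and is not reported by name here. Promoters come from RefSeq, matched by symbol for 3 of 3 genes.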

Additional observations from a re-analysis of the deposited data

Results flagged for a closer look

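Elovl2 in WT CR M replicate 4 had 335 normalized counts and stood far from the other 4 livers of its group, the next highest of which had 77.4. It was the 1 liver marked in this way among 24 groups tested, and chance marks about 1 group in 20. The diet change of Elovl6 was larger in males than in females of d3 mice, with a difference of 1.78 ± 0.38 on the log2 scale (SE, adjusted p = 0.00886, limma). The same difference was 1.64 for Acaca (adjusted p = 0.0117) and -1.29 for Acsl1 (adjusted p = 0.0136). Without the 17 muscle-rich livers, those of Elovl6 (1.89, adjusted p = 0.106) and Acsl1 (-1.46, adjusted p = 0.147) no longer passed, and that of Acaca did (1.54, adjusted p = 0.0383). In WT mice the difference for Elovl6 was 0.90 ± 0.38 (adjusted p = 0.357). Whether the genotypes differ in it was not tested.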

How the results depend on the processing

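The number of elongases called for diet, 0 in each pair, depended on the setting. In WT males it was 2 with library weights, 1 with edgeR and 1 without the muscle-rich livers, and 0 to 2 when 1 liver was left out. In WT females it was 1 with library weights and 0 to 1 with 1 liver left out, the calls coming without WT AL F replicate 5 or WT CR F replicate 4. In d3 males it was 0 to 1. In the averages over 4 pairs, Elovl5 and Elovl2 kept their diet calls in all settings, while Elovl1 lost its call in 4 of 7 other settings. The cause was not tested.

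Changes near 0 turned sign. With library weights, the change of Elovl1 was 0.064 for diet in WT males, 0.0024 for genotype in CR females, -0.022 for sex in d3 CR and -0.038 for averaged sex. Elovl2 was 0.15 for diet in d3 females and -0.48 for averaged genotype, and Elovl5 was -0.044 for sex in WT CR and 0.033 for averaged sex. Without the muscle-rich livers, Elovl1 was 0.0060 for diet in WT males, -0.10 for sex in d3 CR and -0.10 for averaged sex. Elovl2 was 0.93 for genotype in CR males, 1.09 for sex in d3 CR and -0.23 for averaged genotype, and Elovl5 was -0.18 for sex in WT CR. The muscle covariate gave Elovl2 0.030 for genotype in CR males, and averaged genotype was -0.066 with a pseudocount of 10 and -0.30 with edgeR.

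With 1 liver left out, Elovl1 ran from -0.083 to 0.070 for diet in WT males, -0.098 to 0.023 for genotype in CR females, -0.018 to 0.10 for sex in d3 CR and -0.0038 to 0.038 for averaged sex. Elovl2 ran from -0.87 to 0.16 for diet in d3 females, -0.44 to 0.58 for genotype in CR males and -0.20 to 0.27 for averaged genotype. Elovl5 ran from -0.37 to 0.15 for genotype in AL females, -0.079 to 0.36 in CR females, -0.083 to 0.14 for sex in WT CR, -0.20 to 0.30 in d3 AL and -0.099 to 0.048 for averaged sex. Counting error is widest for Elovl2, which had at most 539 reads in a liver. No paired analysis was possible because the replicate numbers follow the order of the samples and pair no mice.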
